A study of Homo sapiens with 24 samples.

Results

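The genes described here are 10 regulators and markers of the epithelial and mesenchymal states: the cadherins CDH1 and CDH2, the surface protein EPCAM, the filament protein VIM, the splicing factor ESRP1 and the transcription factors SNAI1, SNAI2, TWIST1, ZEB1 and ZEB2. They were chosen by name, and all 10 were found among the 48162 genes of the expression tables. RNA-seq was made from cultures of 2 immortalised lines, each labelled a normal pancreas cell: hTERT-HPNE (HPNE), which carries the telomerase gene hTERT, and HPDE-H6c7 (HPDE), derived from the epithelium of a pancreatic duct. Both were grown in serum-free keratinocyte medium and treated for 24 h in 4 ways. Cells were given fresh serum-free medium (untreated), the residual medium left from vesicle isolation, extracellular vesicles (EV) of the pancreatic cancer line PANC-1 at 1e10 per well, or EV of PPCL-68 cells at the same number. Each of the 8 groups had 3 libraries, and each recipient is a single line. The labels do not say whether the 3 libraries of a group came from separate cultures, so p-values measure the spread between these libraries, which may be technical.

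Epithelial cells hold together through E-cadherin, the product of CDH1, and their sheets carry the adhesion molecule EPCAM. In the epithelial-mesenchymal transition, transcription factors of the SNAI, ZEB and TWIST families repress such genes, largely through E-box sequences such as CAGGTG, while N-cadherin (CDH2) and vimentin (VIM) become abundant. ESRP1 directs the epithelial splicing of many transcripts and is itself a known target of repression by ZEB1. In pancreatic cancer this transition is studied for its link to invasion and spread.

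Promoter windows of VIM and ZEB1 are shown because VIM fell in HPNE cells and ZEB1 differed widely between the lines. They are the 250 bases before an annotated start in RefSeq, build GRCh38.p14, plus strand, and capitals mark CAGGTG or its reverse complement CACCTG, the E-box that SNAI and ZEB factors bind.
VIM, chr10:17227991-17228240: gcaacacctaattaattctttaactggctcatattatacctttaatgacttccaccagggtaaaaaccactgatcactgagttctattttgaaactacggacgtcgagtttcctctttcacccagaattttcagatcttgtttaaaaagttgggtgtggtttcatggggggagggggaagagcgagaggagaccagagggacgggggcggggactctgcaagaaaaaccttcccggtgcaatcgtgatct
ZEB1, chr10:31318167-31318416: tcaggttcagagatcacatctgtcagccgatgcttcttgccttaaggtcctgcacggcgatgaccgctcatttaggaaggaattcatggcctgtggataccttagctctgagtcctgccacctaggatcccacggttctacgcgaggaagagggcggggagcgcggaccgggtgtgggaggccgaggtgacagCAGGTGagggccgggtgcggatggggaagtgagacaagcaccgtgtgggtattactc
The VIM window held no match. This ZEB1 window is 1 of several of that gene, and it held 1 match, which begins 57 bases before the start. The sequence table had entries for 4 members (CDH2, VIM, ZEB1 and ZEB2) with 11 windows, most of them of ZEB1. The motif was held on either strand by 2 of these windows, both of ZEB1 and 1 of them the window shown. The other ZEB1 windows held none. Among all 35116 windows of that length, 17.5% held it. A match describes the letters and is not evidence of binding.

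In the hg19 coordinates of the tables, CDH1 (ENSG00000039068) lies at chr16:68771128-68869445 on the plus strand, EPCAM (ENSG00000119888) at chr2:47572297-47614740 on the plus strand and ESRP1 (ENSG00000104413) at chr8:95653302-95719694 on the plus strand. CDH2 (ENSG00000170558) lies at chr18:25530930-25757410 on the minus strand and VIM (ENSG00000026025) at chr10:17270258-17279592 on the plus strand. SNAI1 (ENSG00000124216) lies at chr20:48599536-48605423 on the plus strand, SNAI2 (ENSG00000019549) at chr8:49830249-49834299 on the minus strand and TWIST1 (ENSG00000122691) at chr7:19060614-19157295 on the minus strand. ZEB1 (ENSG00000148516) lies at chr10:31607424-31818742 on the plus strand and ZEB2 (ENSG00000169554) at chr2:145145568-145282147 on the minus strand. All are annotated as protein coding, and each value below covers the whole gene model. The library kit kept no strand, so reads of VIM, ZEB1 and ZEB2 cannot be told apart from those of their antisense neighbours VIM-AS1, ZEB1-AS1 and ZEB2-AS1 where these overlap.

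Reads assigned to genes numbered 29874928 to 46490312 per HPNE library and 29209142 to 42206773 per HPDE library. Values are FPKM, which divide reads by gene length and by library total, so levels of different genes can be set side by side per length. A list of 8 duct markers, among them KRT7, KRT19 and SOX9, summed to 6.87 to 16.3 FPKM in HPNE libraries and to 1223 to 3298 FPKM in HPDE libraries, and CFTR was at or near 0 in both lines. A list of 7 fibroblast or stellate markers summed to 2880 to 9272 FPKM in HPNE and 2.37 to 8.12 FPKM in HPDE. HPNE thus lacked most duct markers, and markers of acinar and endocrine cells summed to less than 1 FPKM in every library of both lines. Within the HPNE groups, libraries differed along a component that held 57.3% of the within-group variance, computed without the 10 genes, against 20.9% in HPDE. It set 5 HPNE libraries (untreated 1 and 2, residual medium 3, PANC-1 EV 1 and PPCL-68 EV 1) apart from the other 7, and the labels give no batch for this. For the main HPNE results the ratios within each set are given below. The component was computed on deviations from group means, so every group has libraries on both sides. Vesicles against residual medium compare 1 library with 1 in the set of 5, and 2 with 2 in the set of 7. Residual medium against untreated compares 1 with 2 in the set of 5, and 2 with 1 in the set of 7.

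In untreated cells the epithelial members were abundant in HPDE and nearly absent from HPNE, while the mesenchymal members and the transcription factors were higher in HPNE. E-cadherin, CDH1, had 52.8, 53.5 and 49.9 FPKM in the 3 HPDE libraries, and 1 to 9 reads per library in HPNE. EPCAM had 150, 151 and 148 FPKM in HPDE and at most 5 reads in HPNE. The epithelial splicing factor ESRP1 had 36.1, 34.5 and 36.1 FPKM in HPDE and 1 to 7 reads in HPNE. For these 3 genes every HPDE library lay far above every HPNE library.

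Vimentin went the other way. VIM had 279, 282 and 300 FPKM in untreated HPNE and 23, 25.5 and 23.9 FPKM in untreated HPDE, so the epithelial line also held VIM transcripts, at a ratio of means of 0.0840. N-cadherin, CDH2, had 9.12, 8.34 and 8.86 FPKM in HPNE and 0.474, 0.356 and 0.328 FPKM in HPDE. Of the zinc-finger repressors, ZEB1 had 22.1, 22.5 and 24.2 FPKM in HPNE and 0.139 to 0.185 FPKM in HPDE. ZEB2 had 14.6, 14.4 and 15.8 FPKM in HPNE and 0.0872 to 0.136 FPKM in HPDE. Both ZEB genes were thus low but detected in the line that held CDH1 and ESRP1. Untreated HPDE libraries had 29 to 49 reads of ZEB1 and 21 to 36 reads of ZEB2.

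The SNAI factors and TWIST1 were found in both lines. SNAI2, which encodes Slug, had 107, 109 and 104 FPKM in untreated HPNE and 70.5, 64.3 and 66.5 FPKM in untreated HPDE, the smallest gap of the 10 genes with a ratio of means of 0.629. SNAI1, which encodes Snail, had 20.4, 23 and 7.70 FPKM in HPNE and 1.89, 2.16 and 2.02 FPKM in HPDE. TWIST1, a basic helix-loop-helix factor, had 17.1, 15.1 and 10.3 FPKM in HPNE and 2.23, 2.74 and 3.69 FPKM in HPDE. For SNAI2, SNAI1 and TWIST1 every HPNE library lay above every HPDE library, although replicate 3 of untreated HPNE was the lowest for SNAI1 and TWIST1.

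All 10 members passed the test between untreated lines (limma on log2(FPKM + 1), Benjamini-Hochberg adjusted p under 0.05), 3 higher and 7 lower in HPDE. The background is high, since 83.8% of the 12377 genes tested differed, 56.0% higher and 27.7% lower. On that scale the differences of HPDE minus HPNE ran from 7.17 ± 0.06 (SE) for EPCAM (adjusted p = 3.98e-26) to -4.37 ± 0.07 for ZEB1 (adjusted p = 1.38e-21), and that of SNAI2 was -0.66 ± 0.10 (adjusted p = 2.47e-06). The median over all genes was 0.38, or 0.03 with size factors, and no member changed direction between these scalings. CDH1, EPCAM, ESRP1, ZEB1, ZEB2 and CDH2 entered this fit through the line where they are high, so their differences are given as descriptions.

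**Figure D1:**
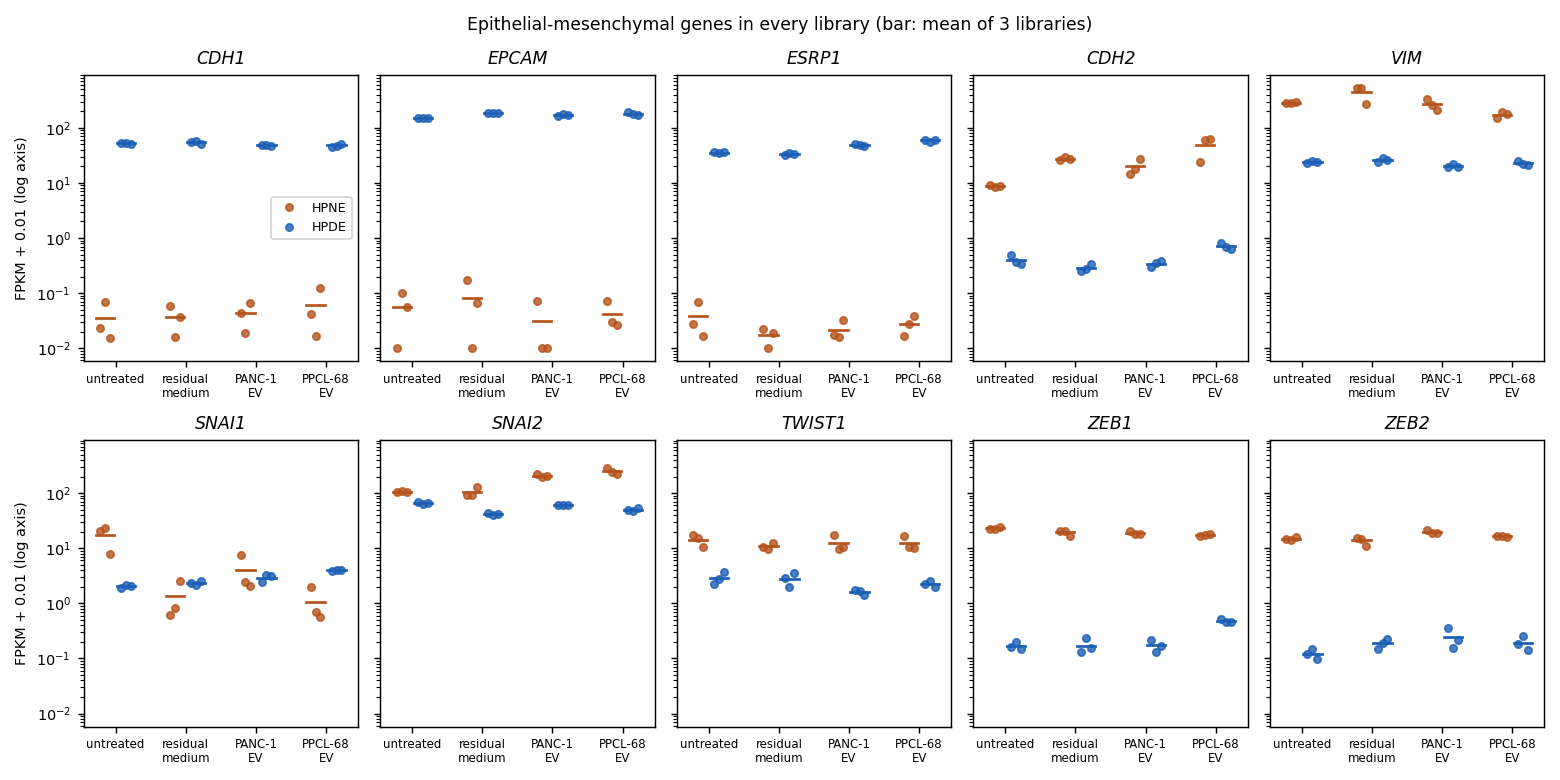
FPKM plus 0.01 of each gene (log axis) in the 12 HPNE and 12 HPDE libraries by treatment, with points for libraries and bars for means of 3. CDH1, EPCAM and ESRP1 sit near the bottom in HPNE and above 30 FPKM in HPDE, ZEB1, ZEB2 and CDH2 show the opposite pattern, and SNAI2 is the closest between the untreated groups.

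Related genes were taken from lists written from general knowledge. Many of their epithelial genes entered the fit only through HPDE, and 11 of the junction and surface genes reached the filter in HPNE, so the counts between lines are descriptions. Of 36 epithelial junction and surface genes, 34 were tested and 34 were higher in untreated HPDE, with a median difference of 3.87. P-cadherin, CDH3, had 116 ± 1.21 FPKM in HPDE and 0.0616 ± 0.00848 FPKM in HPNE (SD, n = 3). Of 12 epithelial transcription and splicing factors, 9 were tested, 8 were higher in HPDE and 1 was lower. The exception was KLF4, a zinc-finger factor, with 5.30 ± 0.194 FPKM in HPDE and 16.5 ± 4.62 FPKM in HPNE. TP63, a factor of basal epithelium, had 73.9 ± 2.49 FPKM in HPDE and 0.0235 ± 0.0170 FPKM in HPNE. Of 15 mesenchymal transcription factors, 12 were tested, 10 were lower in HPDE and 2, FOXC1 among them, were higher. Of 22 mesenchymal surface, filament and contractile genes, 19 were tested and 16 were lower in HPDE, led by the receptor PDGFRB with 445 ± 90.6 FPKM in HPNE and 0.146 ± 0.0728 FPKM in HPDE. Of 24 genes of the TGF-beta pathway, a known inducer of the transition, 19 were tested, 15 were lower and 4 were higher in HPDE.

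The residual medium controls for what the vesicle preparation carries besides vesicles. In HPNE it came with a large fall of SNAI1 and a rise of CDH2. SNAI1 had 20.4, 23 and 7.70 FPKM in untreated libraries and 0.608, 0.824 and 2.57 FPKM with residual medium, and the groups did not overlap. Its difference was -2.91 ± 0.49 (adjusted p = 0.00132). The mean was 8.43-fold lower in the set of 5 HPNE libraries (1 library against 2) and 10.8-fold lower in the set of 7 (2 against 1). Lower RNA in a culture can mean fewer cells that hold a transcript or less of it per cell, and bulk libraries cannot tell these apart.

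CDH2 had 9.12, 8.34 and 8.86 FPKM in untreated HPNE and 25.6, 29.7 and 27.2 FPKM with residual medium, so the 3 libraries of each group lay close together. It rose by 1.54 ± 0.31 (adjusted p = 0.00319), and the ratio was 3.11 in the set of 5 libraries and 3.12 in the set of 7. These 2 of the 7 members tested in HPNE passed the test, against 43.9% of the 11503 genes tested. VIM had 529, 539 and 273 FPKM with residual medium, against 279, 282 and 300 FPKM untreated, so replicate 3 lay with the controls. Its difference was 0.57 ± 0.25 (adjusted p = 0.0797), and without residual medium replicate 3 it was 0.89 (adjusted p = 0.00195). The ratio was 0.973 in the set of 5 libraries and 1.78 in the set of 7. ZEB1, with 20.7, 20.9 and 17.0 FPKM, differed by -0.23 ± 0.09 (adjusted p = 0.0657). SNAI2, TWIST1 and ZEB2 had adjusted p-values of 0.823, 0.276 and 0.417. The summed fibroblast or stellate markers ranged from 7113 to 9272 FPKM untreated and from 3611 to 7064 FPKM with residual medium, with 6 of 7 markers at a median of 1 FPKM or more in both and DES at or near 0. Their part in these differences was not tested.

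In HPDE the residual medium came with a rise of EPCAM and a fall of SNAI2. EPCAM had 150, 151 and 148 FPKM untreated and 184, 188 and 188 FPKM with residual medium, a rise of 0.32 ± 0.05 (adjusted p = 0.000334). SNAI2 had 70.5, 64.3 and 66.5 FPKM untreated and 43.3, 40.6 and 42.7 FPKM with residual medium, a ratio of means of 0.629 and a difference of -0.66 ± 0.05 (adjusted p = 2.84e-07). Neither gene's groups overlapped, which describes these libraries, as the share of all genes without overlap is not given here. These were 2 of the 7 members tested in HPDE, against 20.0% of 12223 genes. CDH1, ESRP1, VIM, SNAI1 and TWIST1 did not pass, with adjusted p-values from 0.264 for SNAI1 to 0.874 for TWIST1. Duct markers summed to 2596 to 2833 FPKM untreated and to 2914 to 3298 FPKM with residual medium. Their part in the rise of EPCAM was not tested.

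Vesicles were compared with the residual medium of the same line. In HPNE, SNAI2 rose with both kinds. It had 94.0, 93.9 and 127 FPKM with residual medium, 222, 198 and 203 FPKM with PANC-1 EV and 287, 238 and 227 FPKM with PPCL-68 EV. Every vesicle library lay above every control library of either kind. The mean was 1.98-fold higher with PANC-1 EV (0.99 ± 0.13, adjusted p = 0.000734) and 2.39-fold higher with PPCL-68 EV (1.25 ± 0.13, adjusted p = 7.39e-05). The ratio was 1.75 and 2.14 with PANC-1 EV, and 2.26 and 2.48 with PPCL-68 EV, in the sets of 5 and 7 libraries.

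VIM fell with PPCL-68 EV in HPNE. It had 149, 192 and 182 FPKM there, below all 3 residual medium libraries (529, 539 and 273 FPKM) and also below the untreated ones. The difference was -1.30 ± 0.25 (adjusted p = 0.00225), and the ratio was 0.545 in the set of 5 libraries and 0.350 in the set of 7. With PANC-1 EV, VIM had 330, 262 and 207 FPKM and overlapped the residual medium group, with a difference of -0.71 ± 0.25 (adjusted p = 0.0575). This result turned on single libraries. Without residual medium replicate 3 the difference was -1.03 (adjusted p = 0.00146), without PANC-1 EV replicate 1 it was -0.87 (adjusted p = 0.0436), and the ratio was 1.21 in the set of 5 libraries but 0.439 in the set of 7. It also passed with size factors (adjusted p = 0.0403). The fibroblast or stellate markers, which do not include VIM, summed to 4669 to 6848 FPKM after PANC-1 EV and 2880 to 3982 FPKM after PPCL-68 EV. With residual medium they summed to 3611 to 7064 FPKM, a range that overlaps that of PPCL-68 EV, and untreated to 7113 to 9272 FPKM. Their part in the fall of VIM was not tested.

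ZEB2 rose with PANC-1 EV in HPNE, from 15.5, 14.8 and 11.1 FPKM to 21.9, 19.0 and 19.0 FPKM. The groups did not overlap, and the difference was 0.51 ± 0.11 (adjusted p = 0.00923), but it did not pass in a fit of only the 6 libraries compared (adjusted p = 0.0560). The ratio was 1.96 in the set of 5 libraries and 1.25 in the set of 7. With PPCL-68 EV ZEB2 had 16.7, 17.0 and 15.8 FPKM and differed by 0.25 ± 0.11 (adjusted p = 0.0944). SNAI2 and ZEB2 with PANC-1 EV, and SNAI2 and VIM with PPCL-68 EV, were the members that passed, 2 of 7 each, against 24.2% and 39.9% of all genes tested.

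N-cadherin varied between replicates. CDH2 had 14.7, 17.8 and 27.3 FPKM with PANC-1 EV and 23.8, 59.0 and 61.6 FPKM with PPCL-68 EV, against 25.6, 29.7 and 27.2 FPKM with residual medium. Neither difference passed, at -0.49 ± 0.31 (adjusted p = 0.259) and 0.67 ± 0.31 (adjusted p = 0.103). PPCL-68 EV replicate 1 stood apart, and without it the difference of PPCL-68 EV was 1.11 (adjusted p = 0.00234). Against residual medium the PPCL-68 EV ratio was 0.877 in the set of 5 libraries and 2.18 in the set of 7. SNAI1 had 7.63, 2.40 and 2.05 FPKM with PANC-1 EV and 1.93, 0.675 and 0.551 FPKM with PPCL-68 EV, so it stayed below the untreated libraries with either. Its mean with PANC-1 EV was 3.02-fold that with residual medium (1.03 ± 0.49, adjusted p = 0.138), with ratios of 2.97 and 3.11 in the 2 sets of libraries.

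TWIST1 was higher in the set of 5 libraries than in the other 7, in every group. It had 17.1 and 15.1 FPKM in untreated replicates 1 and 2, 17.4 in PANC-1 EV replicate 1, 16.4 in PPCL-68 EV replicate 1 and 12.2 in residual medium replicate 3. In the other 7 HPNE libraries it lay between 9.84 and 10.6 FPKM. Its vesicle differences were 0.16 ± 0.24 and 0.13 ± 0.24 (adjusted p = 0.647 and 0.695). ZEB1 had 20.4, 18.1 and 18.0 FPKM with PANC-1 EV and 16.4, 17.1 and 18.2 FPKM with PPCL-68 EV. Neither passed against residual medium (adjusted p = 0.736 and 0.179), and with PANC-1 EV the ratio was 1.2 in the set of 5 libraries and 0.868 in the set of 7. Without residual medium replicate 3 the PPCL-68 EV difference was -0.26 (adjusted p = 0.0227). CDH1, EPCAM and ESRP1 stayed at or under 20 reads in every HPNE library, so no change in them was detectable at this depth.

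**Figure D2:**
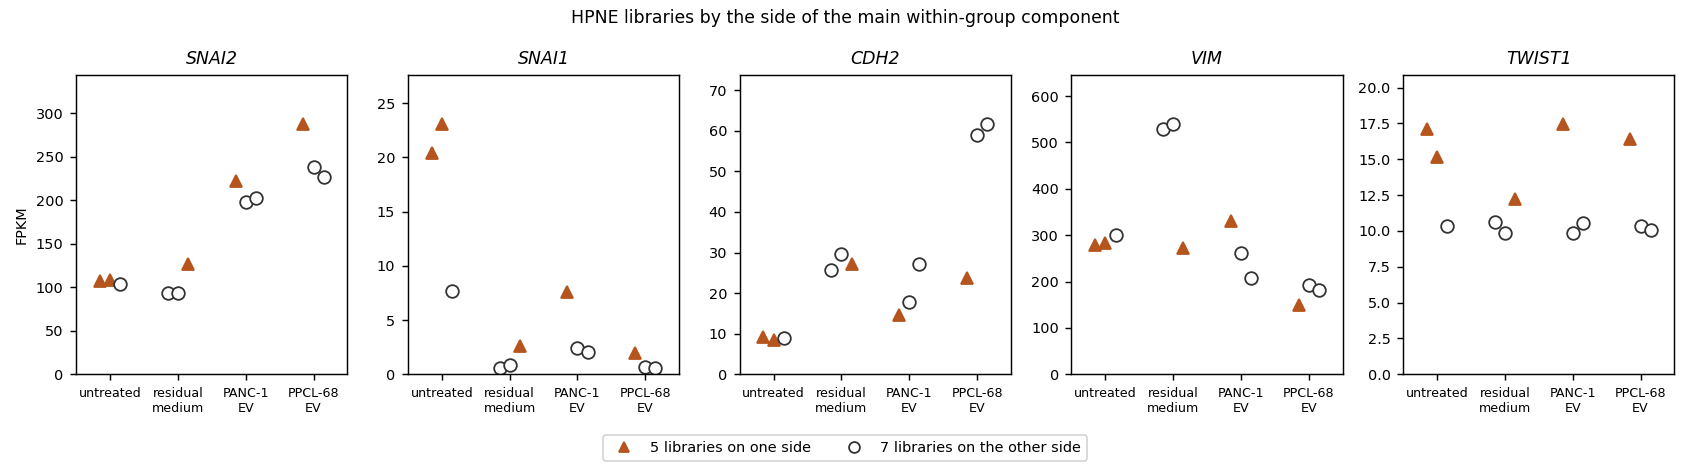
FPKM of SNAI2, SNAI1, CDH2, VIM and TWIST1 in the 12 HPNE libraries, with filled triangles for the 5 libraries on one side of the main within-group component and open circles for the other 7. SNAI2 is above 190 FPKM in every vesicle library of either kind of marker, whereas TWIST1 separates triangles from circles.

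In HPDE, ESRP1 rose with both kinds of vesicle. It had 32.2, 35.5 and 34.1 FPKM with residual medium, 49.9, 48.4 and 47.6 FPKM with PANC-1 EV and 60.5, 56.3 and 61.4 FPKM with PPCL-68 EV. The 3 groups did not overlap, and the untreated libraries (36.1, 34.5 and 36.1 FPKM) lay with residual medium. The means were 1.43-fold (0.51 ± 0.05, adjusted p = 4.11e-07) and 1.75-fold (0.79 ± 0.05, adjusted p = 2.53e-09) that of residual medium.

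The adhesion genes moved little. CDH1 had 54.4, 56.6 and 51.7 FPKM with residual medium, 49.2, 48.3 and 47.6 FPKM with PANC-1 EV and 44.9, 47.4 and 51.4 FPKM with PPCL-68 EV. It fell to 0.892 of the residual medium mean with PANC-1 EV (-0.16 ± 0.05, adjusted p = 0.0138) and to 0.883 of it with PPCL-68 EV (-0.18 ± 0.05, adjusted p = 0.00686). EPCAM fell to 0.918 of its residual medium mean with PANC-1 EV (165, 178 and 171 FPKM, -0.12 ± 0.05, adjusted p = 0.0302) and did not pass with PPCL-68 EV (192, 179 and 171 FPKM, adjusted p = 0.371). With size factors the falls with PANC-1 EV no longer passed (adjusted p = 0.0520 for CDH1 and 0.159 for EPCAM), and without residual medium replicate 2 neither did (adjusted p = 0.0619 and 0.0753). For EPCAM the call was also lost without residual medium replicate 3 (adjusted p = 0.0762) and without PANC-1 EV replicate 1 or 3 (adjusted p = 0.111 and 0.0660). The duct markers summed to 2914 to 3298 FPKM with residual medium, 1354 to 1604 FPKM after PANC-1 EV and 1223 to 1243 FPKM after PPCL-68 EV, with 6 of 8 markers at a median of 1 FPKM or more in each group. Their part in the falls of CDH1 and EPCAM was not tested.

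SNAI2 and SNAI1 rose with vesicles against residual medium in HPDE, whereas in HPNE only SNAI2 of these passed. SNAI2 had 43.3, 40.6 and 42.7 FPKM with residual medium, 60.4, 61.8 and 60.4 FPKM with PANC-1 EV and 49.6, 48.2 and 53.3 FPKM with PPCL-68 EV. It rose by 0.52 ± 0.05 (adjusted p = 3.70e-07) and 0.25 ± 0.05 (adjusted p = 0.000300), yet all vesicle libraries stayed below the untreated ones. SNAI1 had 2.32, 2.18 and 2.49 FPKM with residual medium, 2.44, 3.29 and 3.07 FPKM with PANC-1 EV and 3.88, 4.06 and 4.01 FPKM with PPCL-68 EV. It rose by 0.58 ± 0.08 with PPCL-68 EV (adjusted p = 2.11e-05) and by 0.24 ± 0.08 with PANC-1 EV (adjusted p = 0.0227). The PANC-1 EV group overlapped residual medium, and the rise did not pass without PANC-1 EV replicate 2 (adjusted p = 0.107) or replicate 3 (0.0761), without residual medium replicate 2 (0.0798) or in a fit of only the libraries compared (0.0539).

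VIM and TWIST1 fell with PANC-1 EV in HPDE. VIM had 24.0, 28.6 and 26.4 FPKM with residual medium, 19.8, 22.5 and 19.6 FPKM with PANC-1 EV and 25.2, 22 and 21.6 FPKM with PPCL-68 EV. It fell with PANC-1 EV, where its groups did not overlap (-0.34 ± 0.07, adjusted p = 0.00107). With PPCL-68 EV its groups overlapped at -0.19 ± 0.07 (adjusted p = 0.0306). That call was lost with size factors (adjusted p = 0.0737) and without residual medium replicate 2 or 3 (0.143 and 0.0670) or PPCL-68 EV replicate 2 or 3 (0.0954 and 0.118). TWIST1 had 2.85, 1.96 and 3.56 FPKM with residual medium and 1.73, 1.65 and 1.43 FPKM with PANC-1 EV, a ratio of means of 0.574 (-0.52 ± 0.15, adjusted p = 0.00665). With PPCL-68 EV it had 2.26, 2.54 and 1.99 FPKM and did not pass (-0.20 ± 0.15, adjusted p = 0.247), although without residual medium replicate 2 the difference was -0.37 (adjusted p = 0.0316).

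In all, 7 of the 7 members tested in HPDE passed with PANC-1 EV, 3 higher and 4 lower, and 5 of 7 passed with PPCL-68 EV, 3 higher and 2 lower. With PANC-1 EV 63.3% of the 12223 genes tested passed, 28.2% higher and 35.1% lower. With PPCL-68 EV 67.7% passed, 31.3% higher and 36.4% lower. ZEB1, ZEB2 and CDH2 lay below the filter of a mean of 1 FPKM in HPDE. ZEB1 had 0.119, 0.222 and 0.143 FPKM with residual medium and 0.508, 0.455 and 0.456 FPKM with PPCL-68 EV, on 93 to 106 reads, and without the filter this difference passed (adjusted p = 0.000105). CDH2 had 0.243, 0.263 and 0.330 FPKM and 0.814, 0.690 and 0.632 FPKM, on 91 to 111 reads, and also passed without the filter (adjusted p = 0.000312). On the recovered reads the log2 differences were 1.62 for ZEB1 and 1.38 for CDH2. Both remained far under their HPNE levels, where no library had less than 16.4 FPKM of ZEB1 or 8.34 FPKM of CDH2. ZEB2 did not exceed 0.341 FPKM in any HPDE library.

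**Figure D3:**
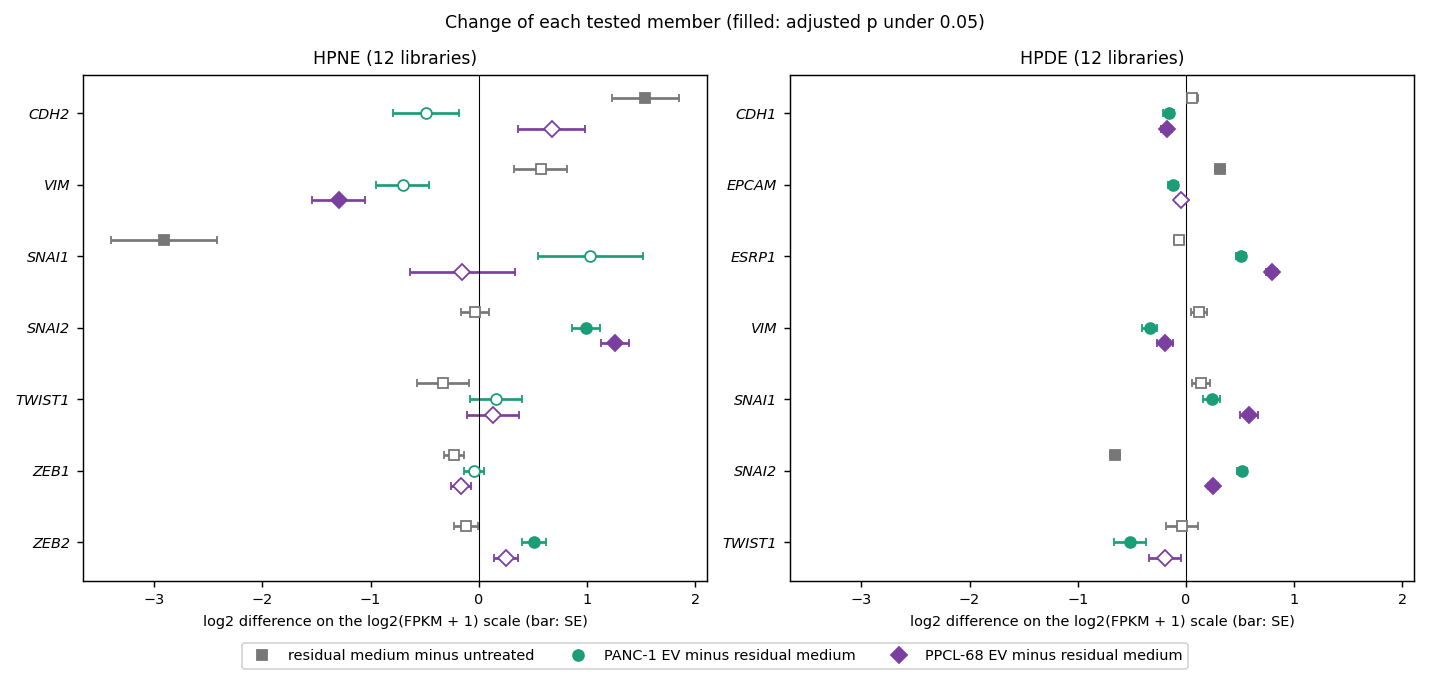
Log2 differences (points, bars for SE) on the log2(FPKM + 1) scale for the members tested in HPNE (left) and HPDE (right), for residual medium against untreated and each vesicle against residual medium, with filled points for an adjusted p under 0.05. SNAI2 is to the right of 0 with both vesicles in both lines, ESRP1 is to the right in HPDE and the largest fall is that of SNAI1 with residual medium in HPNE.

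The 2 kinds of vesicle were compared directly at the same number per well. In HPNE 0 of 7 members differed at an adjusted p under 0.05 in limma, against 5.47% of all genes. At an unadjusted p under 0.05 there were 4 (CDH2, VIM, SNAI1 and ZEB2). The share of all genes at that looser threshold is not given here, so this count has no background. CDH2 was the nearest, at -1.16 ± 0.31 for PANC-1 EV minus PPCL-68 EV (adjusted p = 0.0525). Same-numbered libraries of these groups had correlated deviations, and replicate 1 of each lay in the set of 5 libraries. Whether the numbers mark shared cultures is not known. A block on the number also joined HPNE groups whose same-numbered libraries did not correlate in this way. With that block CDH2 had an adjusted p of 0.0394. It also passed in voom on the recovered reads (0.0478), without PANC-1 EV replicate 3 (0.0442) and without PPCL-68 EV replicate 1 (0.00379). In HPDE 3 of 7 members differed, against 50.1% of all genes. ESRP1 (-0.28 ± 0.05, adjusted p = 0.000201) and SNAI1 (-0.35 ± 0.08, adjusted p = 0.00314) were lower with PANC-1 EV than with PPCL-68 EV, and SNAI2 was higher (0.27 ± 0.05, adjusted p = 0.000323). TWIST1 was at -0.32 ± 0.15 (adjusted p = 0.0828), and it passed in a fit of only those libraries (0.0178). VIM passed only without PANC-1 EV replicate 2 (-0.20, adjusted p = 0.0440).

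Against untreated cells, which share the vesicle libraries of the comparisons above, 4 of 7 members passed in HPNE with PANC-1 EV and 5 of 7 with PPCL-68 EV, beside 21.1% and 42.5% of all genes. SNAI2 was higher with both (0.95 ± 0.13, adjusted p = 0.000845, and 1.22 ± 0.13, adjusted p = 5.19e-05). With PPCL-68 EV, CDH2 was 5.48-fold higher in the mean (2.21 ± 0.31, adjusted p = 0.000273), SNAI1 was lower (-3.07 ± 0.49, adjusted p = 0.000617) and ZEB1 was lower (-0.39 ± 0.09, adjusted p = 0.00590). VIM was lower too (-0.73 ± 0.25, adjusted p = 0.0339), but leaving out any single library of the 2 groups ended that call, with adjusted p-values of 0.0558 to 0.0949. With PANC-1 EV, CDH2 (1.05 ± 0.31, adjusted p = 0.0332), SNAI1 (-1.88 ± 0.49, adjusted p = 0.0204) and ZEB2 (0.39 ± 0.11, adjusted p = 0.0292) passed. None of these 3 passed when untreated replicate 1 or 2 or PANC-1 EV replicate 2 or 3 was left out, with adjusted p-values of 0.0649 to 0.140, nor without the filter on low values. CDH2 was also lost without untreated replicate 3 (0.0575) and ZEB2 without PANC-1 EV replicate 1 (0.0682), without which ZEB1 passed (-0.33, adjusted p = 0.0331).

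In HPDE, 6 of 7 members passed with PANC-1 EV against untreated and 4 of 7 with PPCL-68 EV, beside 60.6% and 66.3% of all genes. ESRP1 was higher with both (0.44 ± 0.05, adjusted p = 1.64e-06, and 0.72 ± 0.05, adjusted p = 6.00e-09), as were EPCAM (0.19 ± 0.05 and 0.27 ± 0.05, adjusted p = 0.00238 and 0.000132) and SNAI1 (0.37 ± 0.08 and 0.72 ± 0.08, adjusted p = 0.00134 and 2.48e-06). SNAI2 was lower with PPCL-68 EV (-0.41 ± 0.05, adjusted p = 2.81e-06) and, by less, after PANC-1 EV (-0.14 ± 0.05, adjusted p = 0.0209), the opposite sign to the comparison with residual medium. TWIST1 was lower with PANC-1 EV (-0.56 ± 0.15, adjusted p = 0.00432), and so was VIM (-0.22 ± 0.07, adjusted p = 0.0193). With PANC-1 EV the call of SNAI2 was lost with size factors (0.111) and without untreated replicate 1 (0.104) or PANC-1 EV replicate 1 or 3 (0.0520 and 0.0566), and that of VIM with size factors (0.0637) and without untreated replicate 2 (0.0803) or PANC-1 EV replicate 1 or 3 (0.0641 and 0.0753). CDH1 did not pass with PPCL-68 EV (-0.12 ± 0.05, adjusted p = 0.0528), but did without untreated replicate 3 (0.0373) or PPCL-68 EV replicate 3 (0.00940).

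Whether the lines differed in a response was tested as an interaction over all 24 libraries, where 21.2% of 12377 genes passed for PANC-1 EV against residual medium, 25.7% for PPCL-68 EV and 38.1% for residual medium against untreated. Over all 10 members 3, 4 and 4 passed, but 6 members are near 0 in one line and cannot respond comparably on this scale, so only VIM, SNAI1, SNAI2 and TWIST1 are described. The rise of SNAI2 was smaller in HPDE than in HPNE with PPCL-68 EV (-1.01 ± 0.14, adjusted p = 2.02e-05). With PANC-1 EV the difference was -0.47 ± 0.14 (adjusted p = 0.0187), but it did not pass without HPNE residual medium replicate 1 or 2 (adjusted p = 0.0560 and 0.0574), in a fit of only the libraries compared (0.0540) or in voom (0.0509). VIM differed between the lines with PPCL-68 EV (1.10 ± 0.27, adjusted p = 0.00491), as it fell further in HPNE. With residual medium the lines differed for SNAI1, which fell in HPNE (3.05 ± 0.53, adjusted p = 0.000265), and for SNAI2, which fell in HPDE (-0.62 ± 0.14, adjusted p = 0.00200). VIM passed after PANC-1 EV (0.69, adjusted p = 0.00768) and residual medium (-0.77, adjusted p = 0.00202) only when HPNE residual medium replicate 3 was left out. TWIST1 passed in none of the 3.

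The wider lists place the members among related genes. In HPNE most epithelial genes were too low to test, and 11 of 36 junction and surface genes and 2 of 12 epithelial factors entered the test. All list counts in HPNE stand beside the share of all genes that passed, 24.2% for PANC-1 EV, 39.9% for PPCL-68 EV and 43.9% for residual medium. Both tested epithelial factors rose with both vesicles against residual medium. KLF4 went from 3.30 ± 2.22 FPKM to 19.8 ± 4.65 FPKM after PANC-1 EV (2.37 ± 0.30, adjusted p = 0.000701) and 16.2 ± 0.705 FPKM with PPCL-68 EV. Untreated HPNE had 16.5 ± 4.62 FPKM of KLF4, and residual medium was lower than that (-2.11 ± 0.30, adjusted p = 0.000586). KLF5 went from 3.23 ± 1.00 FPKM to 6.22 ± 0.881 FPKM and 7.68 ± 1.76 FPKM. Of the junction genes, 3 rose and 1 fell with each vesicle (medians 0.01 for both). The tight-junction gene CLDN1 rose from 1.53 ± 0.483 FPKM to 4.90 ± 2.18 FPKM after PANC-1 EV and 6.30 ± 1.83 FPKM with PPCL-68 EV. JUP, which encodes plakoglobin, had 14.3 ± 3.84 FPKM untreated, 1.31 ± 0.556 FPKM with residual medium and 5.57 ± 1.29 FPKM with PANC-1 EV. Residual medium was lower than untreated (adjusted p = 4.77e-05) and than PANC-1 EV (adjusted p = 0.00264).

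Of 12 mesenchymal factors tested in HPNE, 3 passed with PANC-1 EV, each of them higher, a share near that of all genes, with a median of 0.24 against 0.02 for all genes, and 6 rose and 3 fell with PPCL-68 EV, with a median of 0.32 against 0.00. The forkhead factor FOXF1 rose from 6.20 ± 1.47 FPKM to 14.1 ± 2.93 FPKM and 18.6 ± 2.51 FPKM. RUNX2, an osteoblast factor, rose with PPCL-68 EV from 8.90 ± 2.44 FPKM to 20.6 ± 2.37 FPKM, and TBX2 fell from 42.6 ± 7.95 FPKM to 26.4 ± 2.52 FPKM. Of 19 mesenchymal surface, filament and contractile genes, 1 rose and 1 fell with PANC-1 EV (median -0.28), and 1 rose and 8 fell with PPCL-68 EV (median -0.60). The intermediate filament gene NES fell with both, from 40.1 ± 14.6 FPKM to 20.8 ± 2.84 FPKM (adjusted p = 0.0453) and 12.1 ± 3.21 FPKM (adjusted p = 0.00128). With size factors the count for PANC-1 EV was 1, which was lower.

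In the TGF-beta pathway of HPNE, 19 genes were tested. With residual medium 3 rose and 9 fell against untreated (median -0.36 against -0.05 for all genes). INHBA, a subunit of activin, rose from 58.0 ± 28.4 FPKM to 250.3 ± 45.0 FPKM, while the ligand gene TGFB1 fell from 70.2 ± 15.3 FPKM to 27.4 ± 1.75 FPKM. Against residual medium 4 rose and 1 fell with PANC-1 EV, and 8 rose and 1 fell with PPCL-68 EV. The inhibitor SMAD7 rose from 4.35 ± 2.17 FPKM to 9.20 ± 1.53 FPKM and 10.5 ± 1.02 FPKM. ID1, a target of BMP signals, fell from 7.63 ± 0.659 FPKM to 4.30 ± 1.12 FPKM and 3.96 ± 1.10 FPKM.

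In HPDE 34 of the 36 junction and surface genes were tested. With residual medium 17 rose and 2 fell against untreated (median 0.17 against -0.01 for all genes), beside 20.0% of all genes that passed in that comparison. Against residual medium 6 rose and 17 fell with PANC-1 EV (median -0.12 against -0.04), and 13 rose and 14 fell with PPCL-68 EV (median 0.07 against -0.03). With size factors these counts were 7 and 12 for PANC-1 EV, and 15 and 13 for PPCL-68 EV. The direction depended on the control. Against untreated, 16 rose and 6 fell with PANC-1 EV (median 0.08 against -0.05 for all genes). With PPCL-68 EV, 18 rose and 7 fell against untreated (median 0.17 against -0.03). In these 2 comparisons 60.6% and 66.3% of all genes passed. CLDN1 rose from 54.7 ± 3.51 FPKM to 148 ± 1.76 FPKM with PANC-1 EV, while CLDN4, another claudin, fell from 7.95 ± 0.286 FPKM to 3.11 ± 0.387 FPKM. Untreated HPDE had 3.48 ± 0.356 FPKM of CLDN4, and residual medium was higher than that (1.00 ± 0.08, adjusted p = 5.51e-07). The tight-junction gene CGN fell with PPCL-68 EV from 18.6 ± 0.0770 FPKM to 7.54 ± 0.835 FPKM. Of 11 epithelial factors, 5 rose and 2 fell with each vesicle. TP63 rose with PANC-1 EV from 69.8 ± 2.20 FPKM to 140 ± 6.09 FPKM, and OVOL2, a repressor of mesenchymal genes, fell from 8.30 ± 0.429 FPKM to 4.85 ± 0.363 FPKM.

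Of 6 mesenchymal factors tested in HPDE, 1 rose and 2 fell with PANC-1 EV (3 and 1 with size factors) and 3 rose and 2 fell with PPCL-68 EV. TWIST2, the paralog of TWIST1, rose with PPCL-68 EV from 15 ± 1.06 FPKM to 28.7 ± 2.02 FPKM (0.90 ± 0.08, adjusted p = 1.16e-07). FOXC1 rose from 5.65 ± 0.708 FPKM to 9.81 ± 0.706 FPKM and 10.8 ± 0.378 FPKM. Of 14 mesenchymal surface, filament and contractile genes, 3 rose and 8 fell with each vesicle (medians -0.22 and -0.28), among them the matrix gene SPARC, from 62.2 ± 2.72 FPKM to 34.1 ± 1.5 FPKM and 18.9 ± 0.906 FPKM, and the myosin light chain MYL9, from 7.50 ± 0.633 FPKM to 3.83 ± 0.441 FPKM and 2.91 ± 0.106 FPKM. Of 19 TGF-beta pathway genes, 9 rose and 7 fell with each vesicle. INHBA rose from 25.2 ± 4.17 FPKM to 67.5 ± 5.18 FPKM and 58.4 ± 0.698 FPKM, and ID1 fell from 55.6 ± 3.88 FPKM to 26.7 ± 3.30 FPKM and 27.3 ± 2.83 FPKM. Untreated HPDE had a mean of 24.2 FPKM of ID1, and residual medium was higher than that (1.18 ± 0.10, adjusted p = 2.55e-06). Both vesicle means of ID1 lay nearer to the untreated mean than to that of residual medium. These lists were small, and their counts stand beside the 63.3% and 67.7% of all HPDE genes that changed.

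**Figure D4:**
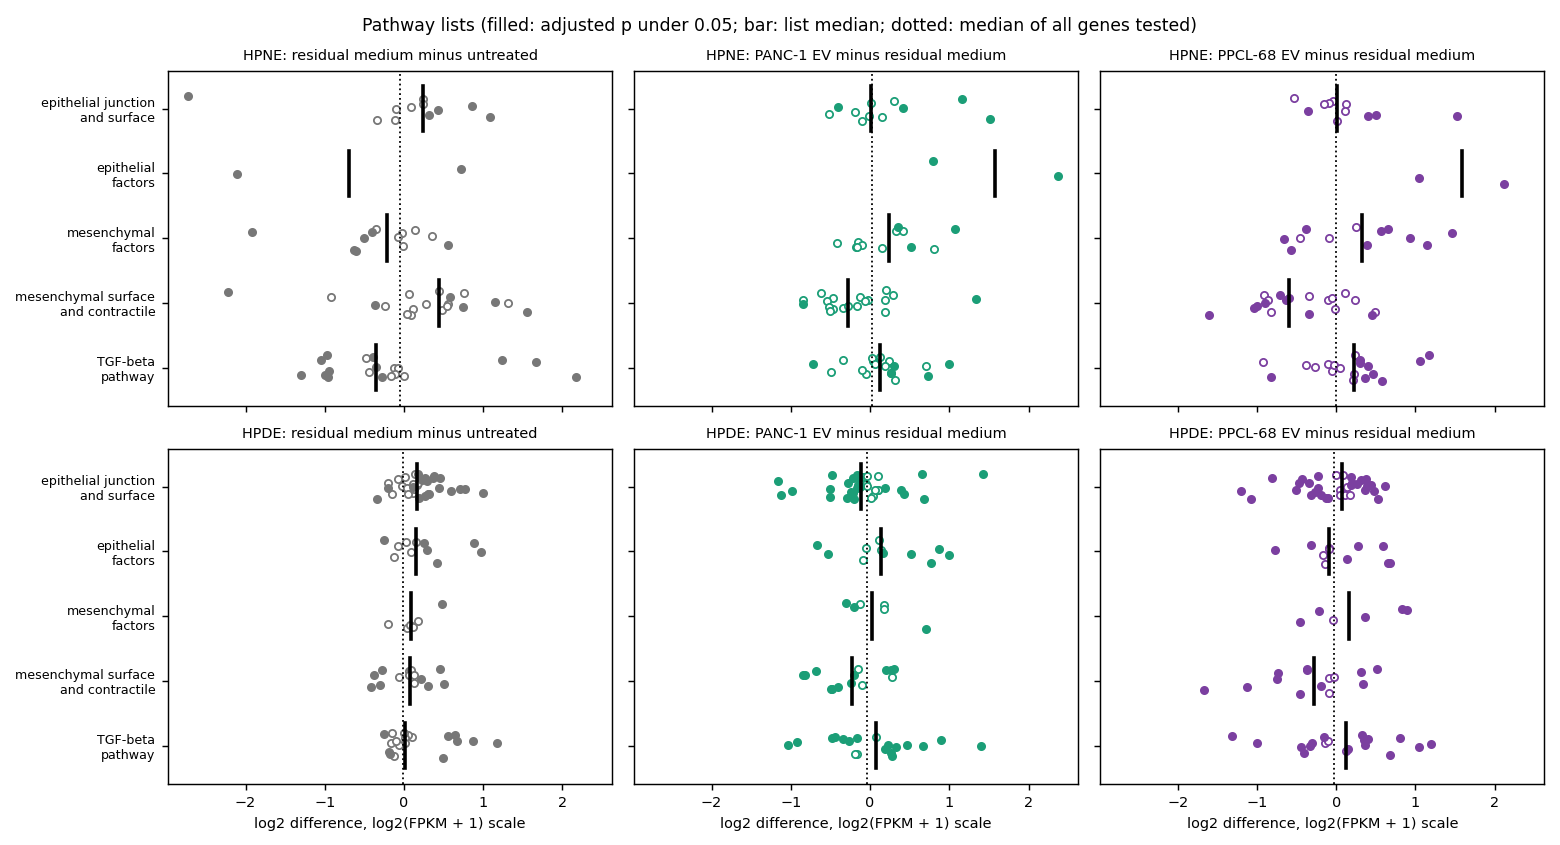
Log2 differences of the genes of 5 lists (one point per gene, filled for an adjusted p under 0.05) in HPNE (top) and HPDE (bottom) for the 3 comparisons, with bars for list medians and dotted lines for the median of all genes. Against residual medium, the median of the mesenchymal surface and contractile list is below 0 with both vesicles in both lines. It is -0.28 and -0.60 in HPNE and -0.22 and -0.28 in HPDE. For residual medium against untreated it is 0.44 in HPNE and 0.08 in HPDE.

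The genes with the most similar pattern were found by Pearson's r of log2(FPKM + 1) over the 12 libraries of a line, which share their library totals, and the values describe these libraries. For ESRP1 in HPDE they were AMMECR1L (r = 0.994), IL1RL1 (r = 0.994) and LRP11 (r = 0.992) among 12222 genes. For EPCAM in HPDE the first was ANXA3 (r = 0.966) and for SNAI2 in HPDE it was ATRX (r = 0.947). In HPNE the first for CDH2 was HMGA2 (r = 0.964), for VIM UBR7 (r = 0.967) and for ZEB1 HSDL2 (r = 0.935), among 11502 genes. For TWIST1 in HPNE it was RPS2P46 (r = 0.949), a pseudogene whose reads can come from its parent gene.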

How the data were processed

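Per the file headers, the authors deposited 1 table per library with FPKM values, gene length, hg19 coordinates and gene type for 48162 genes, and replicates were not pooled. The submitters' processing notes name CASAVA, STAR, HTSeq, DESeq2 and hg19, without versions or roles. Multiplied by gene length, 100% of values were whole multiples of 1 step (tolerance 0.05 reads), which gave the reads per library. Counts cover counting error only, because PCR copies cannot be recognised without molecular identifiers.

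The test was limma 3.58.1 (R 4.3.3) with an eBayes trend on log2(FPKM + 1), which understates changes of low genes. The 12 libraries of a line entered 1 fit with 8 residual degrees of freedom, restricted to genes averaging at least 1 FPKM in that line; lines and interactions came from 1 fit of all 24 libraries (16 degrees of freedom). P-values are two-sided and Benjamini-Hochberg adjusted over all genes tested, with a threshold of 0.05, and errors are SE. Values after ± beside FPKM are SD over 3 libraries. Statements that groups did or did not overlap describe the 3 libraries of each group and are not tests. The share of all genes without overlap is not given, so they have no background. The members and lists were chosen with earlier results of these data known. All 10 members were described; of each list and comparison, up to 2 genes per direction with the largest passing change were eligible to be named, and 3 genes of most similar pattern per member. A few list genes that this rule allows are counted but not reported by name here.

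Alternatives were a pseudocount of 0.1, no filter, median-of-ratios size factors, only the libraries compared, the replicate number as a block, limma voom on the recovered reads and leaving out each library. Voom without a filter was added after the data were seen. Same-numbered libraries of PANC-1 EV and PPCL-68 EV in HPNE correlated in their deviations (r = 0.565, 0.292 and 0.500). The block covered all libraries of a fit, so it also joined groups whose same-numbered libraries did not correlate in this way.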

Additional observations from a re-analysis of the deposited data

Results flagged for a closer look

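In 5 tests a gene expressed in both lines responded differently in HPDE and HPNE, by the interaction in limma. The values are HPDE minus HPNE differences of log2 changes over 24 libraries. With PANC-1 EV, SNAI2 rose less in HPDE (-0.47, adjusted p = 0.0187), but the call was lost in voom (0.0509), in a fit of only the libraries compared (0.0540) and without HPNE residual medium replicate 1 or 2 (0.0560 and 0.0574). With PPCL-68 EV, SNAI2 also rose less in HPDE (-1.01, adjusted p = 2.02e-05). With residual medium SNAI2 fell in HPDE, with a difference between the lines (-0.62, adjusted p = 0.00200). VIM fell less in HPDE than in HPNE with PPCL-68 EV (1.10, adjusted p = 0.00491). SNAI1 fell in HPNE with residual medium, with a difference between the lines (3.05, adjusted p = 0.000265).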

How the results depend on the processing

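Leaving aside single libraries, 759 results for single members kept their direction and side of the threshold under an alternative, 28 lost a call, 21 gained one and 6 changed sign; the cause was not tested. The sign changes were of uncalled values in HPNE: SNAI2 with residual medium (0.0186 with size factors, 0.0290 in voom, 0.0801 in voom without filter), ZEB2 with residual medium (0.0131 in voom without filter) and TWIST1 between the vesicles (-0.0125 in voom, -0.0133 in voom without filter).

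Counts over all genes moved by over 1.5 times in a fit of only the libraries compared (HPNE, PANC-1 EV against residual medium, 1417 against 2784; between vesicles, 319 against 629), without the filter (HPNE between vesicles 335; HPDE residual medium against untreated 1527 against 2443) and in voom without filter (untreated lines, 15668 against 10369). Counts of members moved to 1 (HPNE, PANC-1 EV against residual medium, only the libraries compared; against untreated, without the filter) and to 5 (HPDE between vesicles, without the filter, in both tools). For the line difference with PANC-1 EV, 3 became 1 with a pseudocount of 0.1 or only the libraries compared and 0 in voom with or without the filter. With PPCL-68 EV 4 became 2 in voom without filter, and with residual medium 4 became 2 in voom with or without it.

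With the replicate number as a block, 1 member passed between the vesicles in HPNE, as in voom, and the block changed no other count of members. Other groups shared only a number: between untreated and residual HPNE libraries the mean correlation was -0.432.

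Leaving out 1 library moved the counts of all genes in HPNE to 1348 to 4444 (PANC-1 EV against residual medium), 3000 to 6067 (residual medium against untreated), 1043 to 3067 (PANC-1 EV against untreated) and 133 to 908 (between vesicles), in HPDE to 1427 to 2111 (residual medium against untreated) and for the line difference with PANC-1 EV to 1994 to 4318. Members passing ranged from 1 to 4 (HPNE, PANC-1 EV against untreated), 0 to 1 (HPNE between vesicles) and 4 to 7 (HPDE, PANC-1 EV against residual medium). Uncalled values that changed sign in HPNE were TWIST1 (-0.0790 to 0.301) and ZEB1 (-0.139 to 0.00329) with PANC-1 EV, SNAI1 (-0.441 to 0.201) and TWIST1 (-0.0824 to 0.244) with PPCL-68 EV, SNAI2 (-0.182 to 0.0347) and ZEB2 (-0.201 to 0.0224) with residual medium, VIM with PANC-1 EV against untreated (-0.301 to 0.0334) and TWIST1 between vesicles (-0.209 to 0.242). In HPDE they were TWIST1 with residual medium (-0.186 to 0.126) and CDH1 between vesicles (-0.0275 to 0.0681). Depth limits CDH1, EPCAM and ESRP1 in HPNE, at up to 20 reads per library.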
